A study of Bos indicus with 6 samples.

Results

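Caspases are proteases that cells make as inactive precursors and that cut their targets after aspartate, either to dismantle the cell in apoptosis or to drive inflammatory death and cytokine release. Death receptors of the cell surface recruit the adaptor FADD, which gathers and activates CASP8, and CFLAR (the c-FLIP protein) takes the place of CASP8 in that complex and restrains it. Damage to mitochondria instead releases cytochrome c, which assembles APAF1 and CASP9 into the apoptosome, while XIAP binds and blocks CASP9. In the oviduct, epithelial turnover through the estrous cycle is under the control of estradiol and progesterone.

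The genes described are 4 caspases (CASP6, CASP8, CASP9 and CASP13) and 3 direct regulators (CFLAR, FADD and XIAP), taken from the deposited isthmus table by symbol. Of these 7 symbols, 6 were found, each on 1 of the 24616 rows, and all 6 passed the filter on low and variable values, which kept 15387 rows. CFLAR stood on no row under that symbol. A row named FLIP (ENSBTAG00000010998) is shown beside the members, because FLIP is a common name of the CFLAR protein. The table does not pair both names, so this row was not counted as a member. In the RefSeq annotation of a Bos indicus assembly (NIAB-ARS_B.indTharparkar), which is not the build of the counts, CASP8 and CFLAR share a chromosome with a single protein-coding gene between them. CASP13 was not found there under that symbol.

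The isthmus, the narrow part of the oviduct next to the uterus, was taken from 6 multiparous Nelore (Bos indicus) cows on day 4 after GnRH, as full-thickness wall, with 1 RNA-seq library per cow. The LF/LCL cows (n = 3: 617, 79 and 527) ovulated a larger follicle, and the SF/SCL cows (n = 3: 856, 489215 and 97) a smaller one. All cows were pre-synchronized with prostaglandin F2 alpha and GnRH, and then received estradiol benzoate, an intravaginal progesterone device, prostaglandin at device removal and again some hours later, and GnRH. The LF/LCL cows received an additional prostaglandin injection when the device was inserted, and their device was removed 42 h before GnRH, against 30 h in the SF/SCL group. The cows were chosen for sequencing from the extremes of a ranking by follicle, corpus luteum and hormone values, so the groups are not random draws from each treatment. Values are normalized read counts, that is, reads divided by the DESeq size factor of the library.

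Cow 489215 stood apart from the other SF/SCL cows. Over the genes tested, its log2 level lay a median of 0.83 away from the mean of cows 856 and 97, and 41.5% of the genes lay at least 1 away. The median residual SD within groups was 0.435 (log2) with all cows and 0.183 without it. Its library held 25472906 reads, within the range of 23899117 to 34193164 reads over the 6 libraries. It had the fewest genes with reads, at 16944 against 17348 to 17718. Its size factor was the lowest, at 0.751 against 0.923 to 1.317. Its 10 highest genes held 7.56% of the reads, against 4.34% to 7.09%. Whether library quality contributed to its gaps was not tested. Its normalized levels rest on its size factor. Relative to total reads instead, CASP8, FAS, RIPK1, BIRC3 and KRT18, given below as apart between the groups, would overlap. Smooth muscle markers, of which 7 of 8 were listed, summed to 1255347 in this cow, 351530 and 418436 in SF/SCL cows 856 and 97, and 774049 to 892959 in the LF/LCL cows. ACTA2 alone stood at 533926 in this cow. ACTA2, DES, CNN1, TAGLN and SMTN were above each LF/LCL cow in it. MYH11 and MYLK were instead below each LF/LCL cow, at 116653 against 137623 to 191119 and 47882 against 74149 to 79842. In the limma fit all 7 markers were lower in SF/SCL. Markers of the muscle layer such as MYH11 and of the epithelium such as EPCAM were present in each library. Fold changes and ratio differences below are therefore given with and without cow 489215.

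In normalized read counts, CASP13, CASP8 and FADD were higher in each SF/SCL cow than in each LF/LCL cow, by 1.71-fold, 1.43-fold and 1.35-fold. CASP6 and CASP9 overlapped between the groups, with fold changes of 1.14 and 1.09. XIAP and the row named FLIP also overlapped, and their order turned with cow 489215. In the limma test over 15387 genes, 0 of the 6 members had an adjusted p-value under 0.05, and the same was true of 0% of all genes tested. CASP8 and CASP13, 2 members, reached an unadjusted p-value under 0.05, as did 8.66% of all genes tested. The edgeR quasi-likelihood test on recovered reads gave the same counts, 0 and 2 members, with 0% and 8.49% of all genes. DESeq2 called CASP13 alone, where 1.32% of all genes were called as higher in SF/SCL. Without cow 489215, limma called CASP13 and CASP8 as higher in SF/SCL, against 10.3% of 15495 genes, and 0 members as lower, against 7.92%. With array weights, which gave cow 489215 a low weight, limma called the same 2 members, a share close to the 29.8% of all genes called in that fit. The study listed CASP8, CASP13 and 2 further genes of the pathway, DEDD2 and IL1B, among the genes it called on these libraries, so their direction here is not independent evidence.

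**Figure D1:**
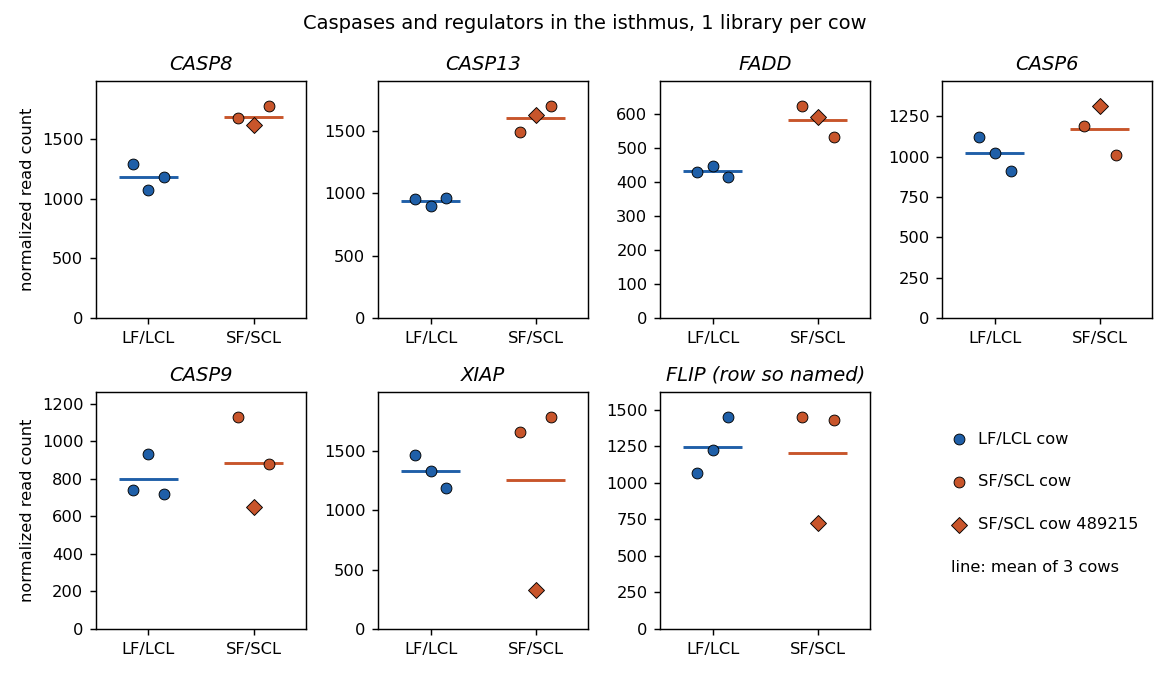
Normalized read count (linear axes from 0) of each gene in each cow, with LF/LCL in blue, SF/SCL in orange, cow 489215 as a diamond and a line at the mean of 3 cows. The groups are apart for CASP8, CASP13 and FADD, and the diamond falls below all other cows for CASP9, XIAP and the row named FLIP.

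CASP8 (ENSBTAG00000015718) is the initiator caspase of the death receptor pathway. Its normalized read count was 1291, 1070 and 1185 in LF/LCL cows 617, 79 and 527, and 1675, 1615 and 1773 in SF/SCL cows 856, 489215 and 97. The lowest SF/SCL value was above the highest LF/LCL value, and cow 489215 stood near the other cows of its group. Both rest on the size factor of cow 489215. Relative to total reads this cow would fall below cow 617, with 1213 of 25472906 reads against 1233 of 25652651. The group means were 1182 ± 110 and 1688 ± 79.8 (SD, n = 3 each). SF/SCL exceeded LF/LCL by a log2 fold change of 0.52 (standard error 0.17, 95% interval 0.12 to 0.92, limma adjusted p = 0.457, unadjusted p = 0.0192). Without cow 489215 it was 0.55 (standard error 0.11, limma adjusted p = 0.0223). DESeq2 gave CASP8 an adjusted p of 0.0988 with all cows.

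CASP13 (ENSBTAG00000020884) is an inflammatory caspase of cattle, related to human CASP4. It had a normalized read count of 955, 899 and 964 in LF/LCL cows 617, 79 and 527, and of 1489, 1628 and 1696 in SF/SCL cows 856, 489215 and 97. It had the widest separation of the members and the lowest p-value, at place 109 of 15387 genes by unadjusted p. Means were 939 ± 34.8 in LF/LCL and 1604 ± 106 in SF/SCL (SD, n = 3 each). The LF/LCL cows varied by a CV of 3.71%, where counting alone gives 3.31% at the lowest read number of this gene, 912 reads. On the log2 scale SF/SCL was higher by 0.77 (standard error 0.16, 95% interval 0.38 to 1.16, limma adjusted p = 0.367, unadjusted p = 0.00262). Without cow 489215 the difference was 0.76 (standard error 0.11, limma adjusted p = 0.00717), and with DESeq2 on all cows it was 0.77 (adjusted p = 0.000581).

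FADD (ENSBTAG00000018274), the adaptor between death receptors and CASP8, had normalized read counts of 431, 449 and 417 in LF/LCL cows 617, 79 and 527. In SF/SCL cows 856, 489215 and 97 it had 624, 594 and 534. The groups did not overlap, and the LF/LCL cows lay within a CV of 3.64%. The log2 fold change was 0.43 (standard error 0.19, 95% interval -0.03 to 0.90, limma adjusted p = 0.618). It was 0.42 (standard error 0.13, limma adjusted p = 0.0777) without cow 489215, so the estimate hardly moved and the adjusted threshold was not reached in either fit. Non-overlapping groups with SF/SCL higher were thus seen for 3 of the 6 members, against 9.51% of all genes tested, and with SF/SCL lower for 0 members, against 8.6%.

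Epithelial markers differed between the groups in the same direction as these 3 genes. Of 8 markers of secretory and general epithelium, 7 were listed and 6 tested, with 5 higher in SF/SCL, 4 of them without overlap (EPCAM, KRT8, KRT18 and KRT7). CDH1 was not listed by that symbol. The summed level ran from 23294 to 31833 in LF/LCL and from 49334 to 370159 in SF/SCL. OVGP1, the oviductal glycoprotein, made up most of the sum in cows 856 and 97, at 271794 and 325158. In cow 489215 it stood at 730, within the LF/LCL range of 287 to 1950. OVGP1 was too variable to pass the filter. Without it the range was 21345 to 31546 in LF/LCL and 38830 to 48604 in SF/SCL, with the highest sum in cow 489215. As a percent of that sum, CASP13 stood at 3.03 to 4.51 in LF/LCL and 3.35 to 3.83 in SF/SCL. CASP8 stood at 4.09 to 5.55 and 3.32 to 4.31, and FADD at 1.37 to 1.96 and 1.19 to 1.61. On this scale the groups overlapped for each of the 3 genes. The sum used as divisor was itself higher in each SF/SCL cow, so dividing by it lowers any gene in SF/SCL relative to LF/LCL. The share of all genes that come to overlap on this scale was not computed, so no conclusion is drawn from it. In bulk tissue, fewer cells of a type and less RNA per cell cannot be told apart, and the part of the epithelial markers in these differences was not tested.

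Leukocyte markers, with 9 of 9 listed, summed to 4925 to 6631 in LF/LCL and 4366 to 8314 in SF/SCL, with 3 higher and 6 lower in SF/SCL. Of the ciliated cell markers, 8 of 9 were tested and 7 were higher in SF/SCL, while PIFO was listed at 0. They summed to 30092 to 38674 in LF/LCL, to 50620 and 55123 in cows 856 and 97, and to 30191 in cow 489215. CAPS was a large part of each sum, at 16551 to 21404 over all cows. In cow 489215, FOXJ1, DNAH5 and TEKT1 were below each LF/LCL cow, and DNAI1 and CCDC39 were above each. Fibroblast markers summed to 76679 to 102406 in LF/LCL and 47891 to 76155 in SF/SCL, and the 5 genes of this list were lower in SF/SCL. Endothelial markers, with 5 of 6 listed and PECAM1 not among them, summed to 11111 to 14606 and 9273 to 11635. Cow 489215 differed from cows 856 and 97 in the smooth muscle and ciliated cell sums, and most in the epithelial sum with OVGP1. It did not differ to that extent in CASP8, CASP13 and FADD, nor in the epithelial sum without OVGP1. That sum was 48604 in cow 489215, against 38830 and 45001 in cows 856 and 97. A relation between the 3 genes and the sums was not tested.

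CASP6 (ENSBTAG00000012537), an executioner caspase that cuts nuclear lamins, had normalized read counts of 1122, 1025 and 914 in LF/LCL cows 617, 79 and 527. In SF/SCL cows 856, 489215 and 97 it had 1191, 1311 and 1009. The groups overlapped, since cow 97 fell below the LF/LCL cows 617 and 79. The difference was 0.19 on the log2 scale (standard error 0.19, 95% interval -0.27 to 0.66, limma adjusted p = 0.859) and 0.11 without cow 489215 (limma adjusted p = 0.615).

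CASP9 (ENSBTAG00000002472), the initiator caspase of the apoptosome, had 741, 934 and 717 in LF/LCL cows 617, 79 and 527, and 1129, 648 and 878 in SF/SCL cows 856, 489215 and 97. Cow 856 was the highest and cow 489215 the lowest of all. The estimate was 0.12 on the log2 scale (standard error 0.26, 95% interval -0.51 to 0.76, limma adjusted p = 0.925). Without cow 489215 it was 0.33 (standard error 0.17, limma adjusted p = 0.228), and without cow 856 it was -0.07.

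XIAP (ENSBTAG00000040350), the inhibitor of CASP9, varied most among the members when cow 489215 was included. Its normalized read count was 1462, 1330 and 1190 in LF/LCL cows 617, 79 and 527, and 1663 and 1785 in SF/SCL cows 856 and 97, but 325 in cow 489215, from 244 reads. Cow 489215 thus held 0.188 of the mean of the other SF/SCL cows, a gap of -2.40 on the log2 scale that was wider than that of 91.5% of the genes tested. The log2 fold change was -0.42 (standard error 0.65, 95% interval -1.98 to 1.14, limma adjusted p = 0.903). Cows 856 and 97 were both above each LF/LCL cow. Without cow 489215 the sign turned, to 0.38 (standard error 0.12, 95% interval 0.10 to 0.66), and the adjusted p from limma was 0.0696.

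The row named FLIP had normalized read counts of 1063, 1223 and 1448 in LF/LCL cows 617, 79 and 527. It had 1447 and 1429 in SF/SCL cows 856 and 97, and 724 in cow 489215, the lowest of all. The log2 fold change was -0.11 (standard error 0.32, 95% interval -0.87 to 0.65, limma adjusted p = 0.950) and turned to 0.22 without cow 489215 (limma adjusted p = 0.331).

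The members therefore fell into those that cow 489215 shared with the other SF/SCL cows and those that it did not. Its log2 gap from the mean of cows 856 and 97 was 0.04 for CASP13, 0.04 for FADD and -0.09 for CASP8. A smaller gap than these was seen in 2.31%, 2.69% and 5.88% of the genes tested. These are the members whose groups did not overlap with this cow included, which favours a small gap, so the shares are a description only. The gap was 0.26 for CASP6, -0.62 for CASP9, -0.99 for the row named FLIP and -2.40 for XIAP. Among the other genes of the pathway, APAF1 had a gap of -2.82, at 125 in cow 489215 against 540 to 934 elsewhere, while the CYCS row ENSBTAG00000022613 had a gap of 1.37. These are values of a single library, scaled by its size factor of 0.751, and have no replicate check.

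**Figure D2:**
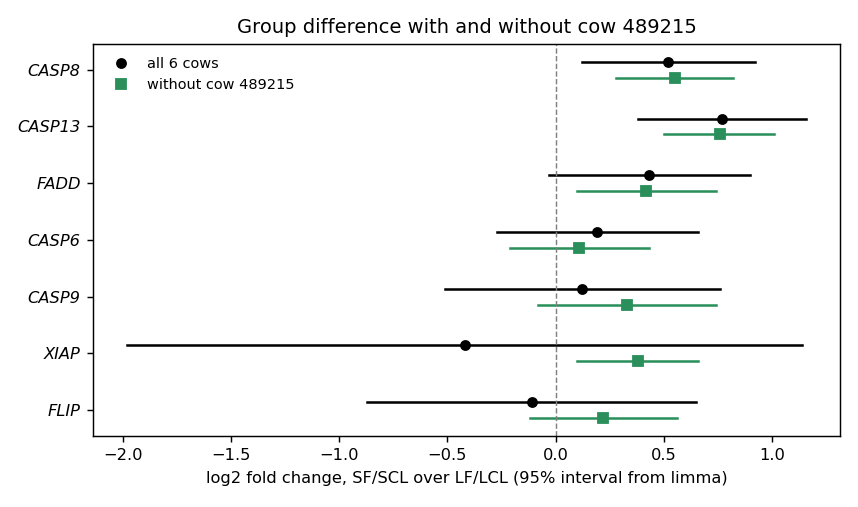
Log2 fold change of SF/SCL over LF/LCL from limma with its 95% interval, for all 6 cows (black circles) and without cow 489215 (green squares). The estimates of CASP8, CASP13 and FADD hardly move, and those of XIAP and the row named FLIP cross 0.

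Ratios within a library do not depend on how libraries are scaled, and 3 were compared between the groups. The log2 ratio of CASP8 to FADD was 1.58, 1.25 and 1.50 in LF/LCL cows 617, 79 and 527, and 1.42, 1.44 and 1.73 in SF/SCL cows 856, 489215 and 97. The groups overlapped, and the difference of 0.09 was smaller than the SD of 0.17 in each group (exact permutation test, two-sided, p = 0.6, Benjamini-Hochberg adjusted p = 0.7). It was 0.13 without cow 489215.

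The log2 ratio of CASP8 to the row named FLIP was 0.28, -0.19 and -0.29 in LF/LCL cows 617, 79 and 527, and 0.21, 1.16 and 0.31 in SF/SCL cows 856, 489215 and 97. The difference was 0.63 (exact permutation test, two-sided, p = 0.2, adjusted p = 0.6), and 0.33 without cow 489215 (exact permutation p = 0.3). The log2 ratio of CASP9 to XIAP was -0.98, -0.51 and -0.73 in LF/LCL cows 617, 79 and 527, and -0.56, 0.99 and -1.02 in SF/SCL cows 856, 489215 and 97. Cow 489215 had the highest ratio, well apart from the other 5 libraries. The difference was 0.54 with it (exact permutation test, p = 0.7, adjusted p = 0.7) and -0.05 without it. No two-sided exact permutation test of 3 against 3 cows, as used here, can give a p-value under 0.1.

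**Figure D3:**
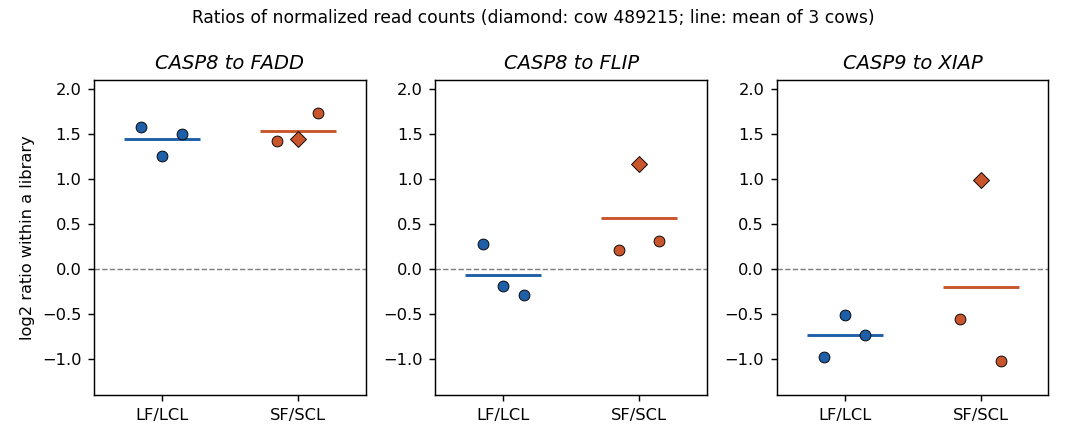
Log2 ratio of the normalized read counts of 2 genes within each library, by group, with cow 489215 as a diamond and a line at the mean of 3 cows. CASP8 to FADD overlaps between the groups at 1.25 to 1.73, and cow 489215 lies above the others in the ratios to FLIP and XIAP.

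The rest of the pathway was read from a list of 61 symbols, of which 50 were listed, on 51 rows, and 48 rows were tested. Their median log2 fold change was 0.0, against -0.02 over all genes tested and 0.31 over the 6 members. Without cow 489215 these medians were 0.11 over the list and 0.40 over the members. In the limma fit 24 of the 48 rows were higher in SF/SCL and 24 lower, and 0 passed the adjusted threshold. The groups did not overlap for 7 rows that were higher and 5 that were lower in SF/SCL, where 9.51% and 8.6% of all genes tested did not overlap. Without cow 489215, limma called 5 rows as higher (FAS, DEDD2, BIRC3, XAF1 and SPTAN1) and 2 as lower (GSN and ROCK1), where the background was the 10.3% and 7.92% given above.

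Of the other caspases of the list, CASP2, an initiator caspase, was tested and was lower in SF/SCL by a log2 fold change of -0.36. The groups did not overlap, at 534 to 578 in LF/LCL and 350 to 505 in SF/SCL (limma adjusted p = 0.755), and its log2 fold change was -0.20 without cow 489215. CASP14, a caspase of the skin, was listed at 0 reads in each library, and CASP16 reached a normalized count of 18.2 in cow 856 and at most 3.51 elsewhere. CASP1, CASP4 and CASP10 were not listed by symbol, and how reads shared between CASP13 and its close relatives were counted is not given in the sources used here.

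Of the death receptors and ligands, 9 of 10 were tested, with 3 higher and 6 lower in SF/SCL and a median log2 fold change of -0.37. Without cow 489215, 4 were higher and 5 lower, with a median of -0.13. FAS, the receptor that recruits FADD and CASP8, had normalized read counts of 308, 330 and 304 in LF/LCL cows 617, 79 and 527, and 623, 346 and 642 in SF/SCL cows 856, 489215 and 97. The groups did not overlap in normalized counts, although cow 489215 was near the LF/LCL cows. Relative to total reads this cow would fall below them, with 260 of 25472906 reads, against 294 of 25652651 in cow 617. Its log2 fold change was 0.72 (standard error 0.30, limma adjusted p = 0.577, unadjusted p = 0.0496) and 1.01 without cow 489215 (limma adjusted p = 0.00583).

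Adaptors and death domain proteins were tested on 10 rows, with 6 higher and 4 lower in SF/SCL and a median of 0.04, or 0.12 without cow 489215. DEDD2, a nuclear protein with a death effector domain like those of FADD and CASP8, had 715, 573 and 647 in LF/LCL cows 617, 79 and 527. In SF/SCL cows 856, 489215 and 97 it had 1109, 1060 and 1089, without overlap and with cow 489215 among its group. DEDD2 had a log2 fold change of 0.76 (standard error 0.18, limma adjusted p = 0.381, unadjusted p = 0.00513), and it passed the threshold with DESeq2 (adjusted p = 0.00571) and without cow 489215 (limma adjusted p = 0.0122). RIPK1, a kinase of the death receptor complexes, also did not overlap, at 1110 to 1236 in LF/LCL and 1373 to 1519 in SF/SCL, with a log2 fold change of 0.28 and, without cow 489215, of 0.30.

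The apoptosome genes did not differ in a shared direction. APAF1 had a log2 fold change of -0.48 (standard error 0.77), which was 0.45 without cow 489215. The CYCS rows had -0.05 and 0.16, or -0.51 and -0.06 without that cow, and since CYCS stands under a pair of identifiers, reads could have been divided between them. Of the other inhibitor of apoptosis proteins, 5 of 6 were tested and BIRC7 was listed at 0. Of these 5, 2 were higher and 3 lower in SF/SCL, with a median of -0.01, and without cow 489215 each of the 5 was higher, with a median of 0.29. BIRC3, which acts with BIRC2 as a ubiquitin ligase on death receptor complexes, had 743 to 803 in LF/LCL and 831 to 1185 in SF/SCL. These normalized counts did not overlap, but relative to total reads cow 489215 would fall below the LF/LCL cows. BIRC3 had a log2 fold change of 0.42 (limma adjusted p = 0.650), and 0.57 without cow 489215 (limma adjusted p = 0.0155). BIRC2 overlapped, at -0.08 (log2) with all cows and 0.10 without cow 489215.

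The antagonists of these inhibitors, which relieve caspases from XIAP, were higher in SF/SCL for 3 of 3 genes, with a median of 0.20, and for 2 of 3 without cow 489215, with a median of 0.05. XAF1, which binds XIAP, had 1153, 1127 and 1141 in LF/LCL cows 617, 79 and 527, and 1559, 2494 and 1509 in SF/SCL cows 856, 489215 and 97. Cow 489215 thus had the highest XAF1 and the lowest XIAP value of the 6 cows, in a single library. In cows 856 and 97 both genes were above each LF/LCL cow, with XIAP at 1663 and 1785. A relation between the genes was not tested. XAF1 had a log2 fold change of 0.66 (standard error 0.24, limma adjusted p = 0.503, unadjusted p = 0.0294) and 0.43 without cow 489215 (limma adjusted p = 0.0235). DIABLO overlapped between the groups, at 0.13 (log2) with all cows and -0.06 without cow 489215.

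Proteins that caspases cut were tested on 10 rows, with 6 higher and 4 lower in SF/SCL and a median of 0.06, or 0.16 without cow 489215. ROCK1, a kinase whose cleavage drives membrane blebbing, had 4400, 4702 and 4839 in LF/LCL cows 617, 79 and 527, and 3494, 2531 and 3695 in SF/SCL cows 856, 489215 and 97. Its log2 fold change was -0.54 (standard error 0.20, limma adjusted p = 0.507, unadjusted p = 0.0312), and -0.37 without cow 489215 (limma adjusted p = 0.0335). Of the 7 inflammasome genes, the setting in which inflammatory caspases act, 3 were higher and 4 lower, with a median of -0.01. Without cow 489215, 4 were higher and 3 lower, with a median of 0.13. IL1B, the cytokine that inflammatory caspases help release, had 13.6, 17.8 and 27.2 in LF/LCL cows 617, 79 and 527. It had 3.04, 3.99 and 6.50 in SF/SCL cows 856, 489215 and 97, with a log2 fold change of -1.89 (standard error 0.50, limma adjusted p = 0.405, unadjusted p = 0.00777) and -1.85 without cow 489215 (limma adjusted p = 0.0688). The groups did not overlap, at 3 to 31 reads per library. GSDMD, the pore-forming protein that inflammatory caspases cut, overlapped, at -0.04 (log2) with all cows and -0.21 without cow 489215.

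**Figure D4:**
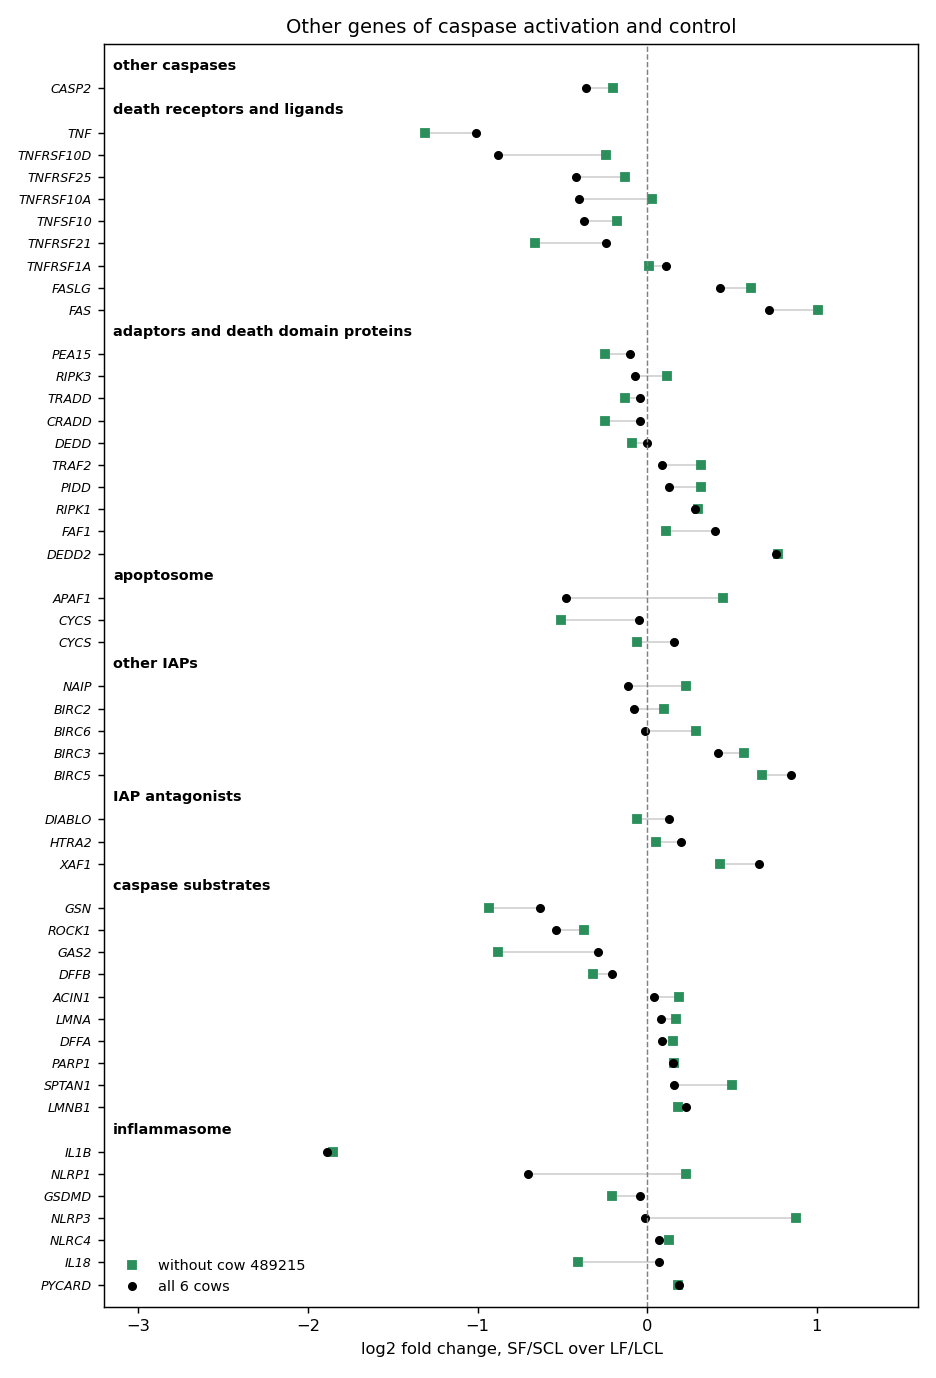
Log2 fold change of SF/SCL over LF/LCL for the 48 tested rows of the pathway, grouped by role, for all 6 cows (black circles) and without cow 489215 (green squares, joined by a grey line). DEDD2 and IL1B hardly move, and APAF1, NLRP1 and NLRP3 move most when that cow is left out.

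The genes whose log2 levels over the 6 libraries were most like those of CASP8 were RNF8, DLG3, RNF114, DEDD2 and IQCB1, with Pearson's r of 0.989 to 0.992. RNF8 is a ubiquitin ligase of the DNA damage response. The genes most like CASP13 were TPT1, DNAJB1, APH1A, PPM1B and USP1, with r of 0.983 to 0.995. TPT1, a translationally controlled protein, ran from 67155 to 73513 in LF/LCL and from 112877 to 123337 in SF/SCL, and DNAJB1 is a heat shock co-chaperone. An r above 0.9 was reached by 317 genes with CASP8 and by 331 with CASP13, so the named genes are the top of a long list over 6 points.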

How the data were processed

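RNA was extracted from frozen isthmus, and poly(A) TruSeq libraries were sequenced as paired ends. The authors aligned the filtered reads to the masked UMD 3.1 assembly with TopHat2 2.0.8 and Bowtie2 2.1.0, counted them per gene with HTSeq 0.5.4p2 and divided them by DESeq 1.12.1 size factors. The strand setting is not given in the sources used here. The deposited signal values are these normalized counts. In each library 100% of the values were whole multiples of a step (within 0.1 of a step), and reads were recovered from them. Totals ran from 23899117 to 34193164 reads. The CV that counting alone gives, stated for CASP13, was taken from its read number and covers counting error only. The intervals of the log2 fold changes come from the limma fit and include the variation between cows.

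SF/SCL was compared with LF/LCL over all genes whose mean normalized count exceeded 5 and also exceeded its SD, by limma 3.58.1 (trend, robust) in R 4.3.3 on log2(value + 1), with Benjamini-Hochberg adjustment at 0.05. The pseudocount slightly understates changes of low genes such as IL1B. Counts were also tested with edgeR 4.0.16 and DESeq2 1.42.0 on recovered reads. Ratios within libraries were tested by exact permutation. The scripts were tested on simulated data. The labels name separate cows and no batch. The members and lists were chosen with earlier results of these data known. The rule named all members, the genes of each list with the lowest unadjusted p-values under 0.05, a fixed set of core pathway genes, and the 5 genes most correlated with CASP8 and with CASP13. CASP2, CASP14, CASP16, RIPK1, GSDMD, NLRP1 and NLRP3 were named after their values were seen, as were SPTAN1 and GSN. The values for the row named FLIP and the epithelial sum without OVGP1 were also added after seeing the data. Alternatives changed the pseudocount, filter, scaling, test and library weights, and left out each cow. Some genes of the pathway are not reported here and were left out of the list counts.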

Additional observations from a re-analysis of the deposited data

How the results depend on the processing

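The fold changes of CASP6, CASP8, CASP13 and FADD kept their direction under all 16 alternatives, at 0.04 to 0.30, 0.45 to 0.62, 0.73 to 0.84 and 0.33 to 0.49 (log2). Of the 6 members, 0 passed the adjusted threshold with all cows in limma, 1 with DESeq2 on recovered reads (CASP13), 2 with limma with array weights (CASP8 and CASP13, at a weight of 0.0477 for cow 489215), and 0 to 2 when each cow was left out, with 2 only without cow 489215. Of the other pathway rows, 1 passed with DESeq2, 13 of 48 with array weights (29.8% of all genes) and 0 to 7 when each cow was left out, with 7 only without cow 489215. The other alternatives left both counts at 0. XIAP turned to 0.39 with array weights and ran from -0.85 to 0.38 when each cow was left out. The row named FLIP turned to 0.21 with array weights and ran from -0.28 to 0.22 (without cow 489215), and CASP9 ran from -0.07 (without cow 856) to 0.33. The difference in the ratio of CASP8 to FADD ran from -0.01 (without cow 79 or cow 97) to 0.15, and that of CASP9 to XIAP from -0.05 (without cow 489215) to 0.96. The difference in the ratio of CASP8 to FLIP kept its direction. The ratio of CASP8 to CFLAR was not run, since no row carries that symbol. No paired analysis was possible because the groups share no cow numbers. The cause of these changes was not tested. Fits without a cow leave groups of 3 and 2, and the fewest reads of a member in a library were 244, for XIAP.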
